A study of Caenorhabditis elegans with 12 samples.

Results

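Day 15 was compared with day 5 in worms of N2, the wild-type laboratory strain of Caenorhabditis elegans, that had all been given 100 nM rotenone for 24 hours from the L4 larval stage. Rotenone inhibits complex I of the mitochondrial respiratory chain. The comparison rests on 6 of the 12 libraries of the series, 3 for each age, chosen by their labels alone. The other 6 libraries come from worms of the same 2 ages given DMSO, the solvent, and enter only where the ageing change after rotenone is set against ageing without it. All libraries hold small RNA of whole hermaphrodites. Of the 250 microRNA hairpins in the table, 176 had enough reads in the 6 rotenone libraries to be tested. Another 59 had reads but too few, with at most 55 in all 6 libraries together, and 15 had no read. The 74 untested hairpins held 0.00230% of the reads.

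MicroRNAs are short RNAs cut from hairpin precursors, and they lower the output of messenger RNAs that pair with their 5′ end, the seed. MicroRNAs with one seed form a family whose members can share targets. In worms they were first found as timers of larval development, and several are known to shorten or lengthen adult life. Adult hermaphrodites keep producing oocytes and embryos for some days, so a whole-worm library mixes RNA of body tissues, germ line and any embryos still in the animal. In such bulk samples fewer cells of a type and less RNA per cell cannot be told apart. Whether ages were counted from hatching or from the adult moult is not stated in the labels, so how long after exposure each age falls is not known.

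The 3 day 5 libraries held 11045174, 8891063 and 9615324 hairpin reads, and the 3 day 15 libraries 5856949, 4457939 and 4215830. Abundance is given as CPM, counts scaled to library size and then by the TMM method, which is relative and gives no amount per worm. A count of 3 was worth 0.272 to 0.712 CPM. Library pairs within an age had Spearman correlations of 0.991 to 0.994 across hairpins. The first principal component of log2 CPM separated the ages with 92.2% of the variance, and the second held 3.43%. The lane tags in the labels put day 5 libraries 1 and 2 and day 15 library 1 in lane L006 and the other 3 in lane L007. The labels do not say that the 3 libraries of an age came from separate cultures, so p-values measure only the spread between these libraries, some or all of it perhaps technical.

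From day 5 to day 15 most hairpins changed. Of the 176 tested, 132 were called by edgeR's quasi-likelihood test at a Benjamini-Hochberg adjusted p under 0.05, which is 75% of them. Of all tested hairpins 38.6% were called higher at day 15 (68 hairpins) and 36.4% were called lower (64 hairpins). The median log2 change of all tested hairpins was 0.03. In 49 hairpins the called change was over 1 on the log2 scale, with 24 higher and 25 lower. The libraries of both ages did not overlap in 134 hairpins, which is 76.1% of those tested. Of the 132 called hairpins, 4 overlapped between ages: mir-228, mir-58a, mir-8198 and mir-8212. The last 2 were named for that count, after their values were seen. Of the 130 hairpins averaging 10 CPM or more, 106 were called, and 26 of the 46 hairpins under that level. Adjusted p-values next to the threshold were 0.0408 and 0.0476 inside it and 0.0614 and 0.0629 outside it. Each of the 132 called hairpins kept its sign within lane L006 and within lane L007. These fits reuse the same 6 libraries, with only 1 day 15 library in lane L006 and only 1 day 5 library in lane L007. Since 128 of the 132 did not overlap between ages, their sign within a lane was all but fixed.

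**Figure D1:**
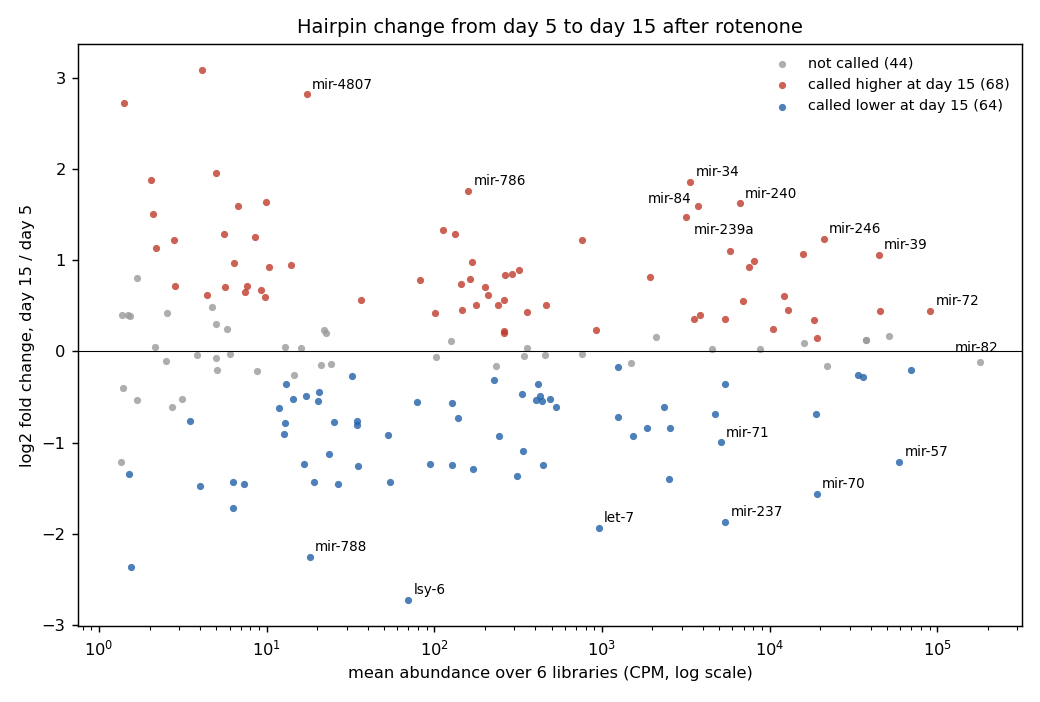
The horizontal axis is the mean abundance of each of the 176 tested hairpins over the 6 libraries in CPM on a log scale, and the vertical axis is the log2 fold change of day 15 over day 5; each point is 1 hairpin. Calls in both directions lie at low abundance, such as mir-4807 and mir-788, and above 10000 CPM, such as mir-72 and mir-57.

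The hairpins of the developmental clock moved in both directions. The let-7 family holds let-7 itself, which drives the step from the last larva to the adult, its sisters mir-48, mir-84 and mir-241, which time earlier larval steps, and the less studied mir-793 to mir-795. All 7 were called, 4 higher and 3 lower, and the libraries of the ages did not overlap in any of the 7. Over all tested hairpins 75% were called, 38.6% higher and 36.4% lower, and 76.1% did not overlap. let-7 had 1598, 1519 and 1366 CPM in the 3 day 5 libraries and 433, 372 and 367 CPM at day 15. Every day 5 library held over 3 times the let-7 level of any day 15 library. The mean went from 1494 ± 118 to 391 ± 37.0 CPM (SD, n = 3), a 3.82-fold fall (log2 -1.93 ± 0.08 SE, adjusted p = 2.52e-10 by edgeR's quasi-likelihood F test). mir-84 had 1951, 1902 and 1791 CPM at day 5 and 5976, 5202 and 5839 CPM at day 15. Its libraries lay the other way round from those of let-7, with all day 15 libraries far above all day 5 libraries. It rose 3.02-fold (log2 1.59 ± 0.07 SE, adjusted p = 2.54e-10, edgeR). The related mir-795 rose by 1.28 and mir-794 by 0.79 on the log2 scale, and mir-48, by far the most abundant of the family, rose by 0.46 from 10882 ± 607 to 14951 ± 684 CPM. mir-241 fell by 0.57 and mir-793 by 0.49. mir-48 and mir-84 outweighed let-7, and the whole family went from 1.54% ± 0.11 to 2.15% ± 0.12 of the reads (SD, n = 3). With 3 libraries an age the exact permutation test of a share cannot go below p = 0.1, and here it gave that value.

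The lin-4 family has 2 members. lin-4, the first microRNA gene found, ends the first larval program and is known to lengthen adult life, and mir-237 is its paralog. mir-237 had 8542, 8542 and 8299.6 CPM at day 5 and 2437, 2543 and 1968 CPM at day 15. The ages did not overlap, and mir-237 fell 3.65-fold from 8461 ± 139.9 to 2316 ± 306 CPM (log2 -1.87 ± 0.09 SE, adjusted p = 4.16e-10, edgeR's quasi-likelihood test). lin-4 had 355, 324 and 372 CPM at day 5 and 331, 382 and 299.7 CPM at day 15. Its ages overlapped, and its log2 change of -0.05 ± 0.09 SE did not pass the test (adjusted p = 0.587, edgeR). A set of 6 heterochronic hairpins, let-7, lin-4, mir-48, mir-84, mir-237 and mir-241, thus held 2 higher, 3 lower and 1 not called, against the 75% called among all tested hairpins.

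Read ratios within a library, which no scaling can change, also moved unevenly. The pairs were chosen after the values were seen and carry no test. mir-84 had 1.22, 1.25 and 1.31 reads for each read of let-7 at day 5 and 13.8, 14 and 15.9 at day 15, an 11.5-fold shift. lin-4 had 0.0414 ± 0.0035 reads per read of mir-237 at day 5 and 0.146 ± 0.009 at day 15 (SD, n = 3). mir-48 and mir-241 lie in 1 cluster, and mir-48 had 72.1 ± 2.9 reads per read of mir-241 at day 5 and 147 ± 6.6 at day 15. In each of these 3 ratios the libraries of the ages did not overlap.

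Hairpins tied to lifespan and stress in worms were mostly higher at day 15. Of 11 such hairpins, 7 were called higher, 2 lower and 2 not, against 38.6% higher and 36.4% lower among all tested. As with all lists here, the members were chosen with earlier results of these data known, so this count is a description and no test. The rises were in mir-34, mir-83, mir-84, mir-238, mir-239a, mir-239b and mir-246, the falls in mir-71 and mir-228, and lin-4 and mir-80 were not called. Several of these also count in other groups here, and mir-238, mir-239a and mir-239b are of the same family. The calls of mir-238 and mir-228 were not kept in every setting. mir-34, studied in worms for its part in stress responses and ageing, had 1532, 1393 and 1469 CPM at day 5 and 5369.9, 5158 and 5429.9 CPM at day 15. The ages were far apart and the libraries within each age close. mir-34 rose 3.63-fold, from 1465 ± 69.5 to 5319 ± 143 CPM (log2 1.86 ± 0.06 SE), and had the lowest adjusted p of all tested hairpins, 5.08e-11 in edgeR. Its hairpin lies on chromosome X at 2969752 to 2969848, minus strand, in the WBcel235 annotation, outside protein-coding genes. mir-71, known to lengthen life, had 6841, 6399.6 and 7006 CPM at day 5 and 3326, 3448 and 3380.4 CPM at day 15. It fell 1.99-fold with no overlap (log2 -0.996 ± 0.059 SE, adjusted p = 5.47e-09, edgeR). mir-34 had 0.217 ± 0.007 reads per read of mir-71 at day 5 and 1.57 ± 0.07 at day 15, so the less abundant of the pair at day 5 was the more abundant at day 15. mir-71 lies on chromosome I at 9379927 to 9380020, minus strand, in an intron of ppfr-1, on the gene's strand.

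Worms without mir-239 are known to live longer, and worms without mir-238 or mir-246 to live shorter. All 3 tested members of the miR-238 family were called higher, beside 38.6% of all tested hairpins. mir-239a had 1714, 1705 and 1698 CPM at day 5 and 4461, 4702 and 5011 CPM at day 15, a 2.77-fold rise with no overlap (log2 1.47 ± 0.06 SE, adjusted p = 2.42e-10, edgeR's quasi-likelihood test). mir-239b rose 1.99-fold, from 5444 ± 136 to 10837 ± 893 CPM (SD, n = 3). mir-238 rose by only 0.24 on the log2 scale, and its call was lost within lane L007 and without the 3 most abundant hairpins (adjusted p 0.0671 to 0.0742, edgeR). The hairpin mir-246, which marks the gonadal sheath, had 12719.7, 12256 and 12930.0 CPM at day 5 and 29590.4, 29104 and 30512 CPM at day 15. It rose 2.35-fold (log2 1.23 ± 0.06 SE, adjusted p = 6.58e-10, edgeR), the ages lying far apart. mir-83, a relative of mammalian miR-29 with a part in autophagy in old worms, rose by 0.62 on the log2 scale, while its relative mir-49 fell by 1.29. Their ratio, mir-83 to mir-49, went from 0.696 ± 0.071 to 2.66 ± 0.37 (SD, n = 3). mir-80, whose loss acts like dietary restriction, had a log2 change of 0.17 ± 0.09 SE that did not pass the test (adjusted p = 0.101, edgeR).

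**Figure D2:**
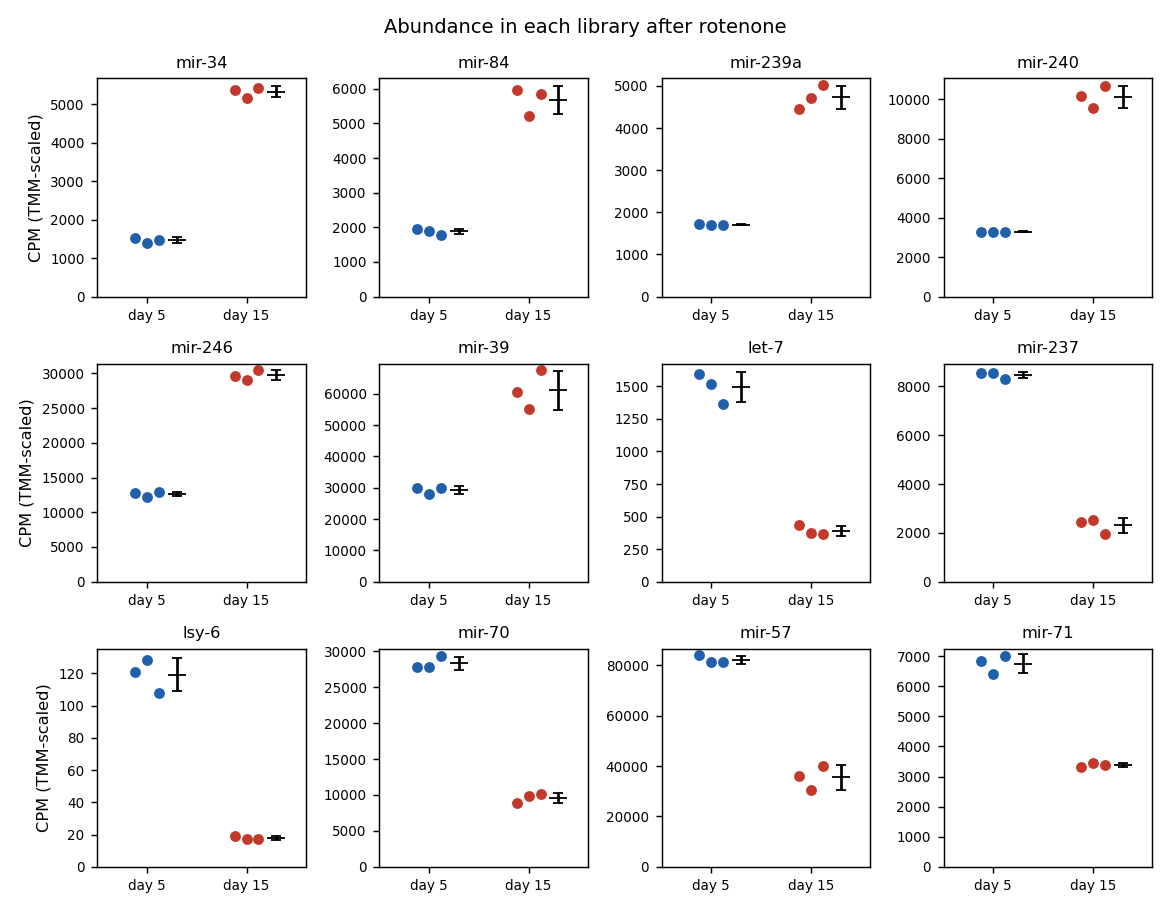
Each panel shows 1 hairpin, with its abundance in TMM-scaled CPM on the vertical axis, 3 points for the day 5 libraries, 3 for the day 15 libraries, and the mean with its SD beside each group. In all 12 panels the libraries of the ages do not overlap; mir-34, mir-84, mir-239a, mir-240, mir-246 and mir-39 were higher at day 15, and let-7, mir-237, lsy-6, mir-70, mir-57 and mir-71 lower.

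Germ cells and embryos hold most miR-35 family RNA, and embryos need the family to develop. It rose as a whole. All 8 members were called higher, with log2 changes from 0.35 to 1.33 and a median of 0.91, against a median of 0.03 over all tested hairpins and 38.6% called higher. mir-39 had 29957, 27880.1 and 30018 CPM at day 5 and 60497, 55152 and 67672 CPM at day 15. The ages did not overlap, and mir-39 rose 2.09-fold (log2 1.06 ± 0.08 SE, adjusted p = 5.53e-08, edgeR's quasi-likelihood test). mir-35, the most abundant member at day 5, rose by 0.44 on the log2 scale, and mir-37 by 0.35, whose call was lost within lane L007 (log2 0.28, adjusted p = 0.106, edgeR). mir-36 rose by 0.93, mir-38 by 0.82, mir-40 by 1.07, mir-41 by 1.33 and mir-42 by 0.89. The family held 10.3%, 10.2% and 10.6% of the reads of the day 5 libraries and 16.6%, 17.2% and 16% of those of the day 15 libraries. The difference of 6.27 percentage points was many times the spread between libraries of an age. Its exact permutation p of 0.1 is the smallest that 3 libraries against 3 allow. Among all 17 lists of hairpins this was the largest shift in the share of reads, upward or downward.

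Hairpins that mark single body tissues went mostly down. Of 7 tissue markers 6 were called lower and mir-246 alone higher, where 36.4% of all tested hairpins were lower and 38.6% higher. Each marker was detected in every library. lsy-6, which sets the left-right difference between a pair of taste neurons, had 121, 129 and 108 CPM at day 5 and 19.4, 17.0 and 17.5 CPM at day 15. Each day 5 library held over 5 times the level of any day 15 library. lsy-6 fell 6.6-fold (log2 -2.72 ± 0.11 SE, adjusted p = 2.42e-10, edgeR's quasi-likelihood test), the largest fall of any tested hairpin. mir-791, found in neurons that sense carbon dioxide, fell by 1.24 on the log2 scale and mir-124, of ciliated sensory neurons, by 0.78. mir-1, of muscle, had 469, 395 and 507 CPM at day 5 and 219, 214 and 211 CPM at day 15, a 2.13-fold fall. mir-60, of the intestine, fell 1.91-fold from 1989 ± 206 to 1042 ± 29.9 CPM (SD, n = 3). mir-228, of glia, had 37965, 39631 and 32587 CPM at day 5 and 32238, 32966 and 27128 CPM at day 15. The ages overlapped, and its small fall (log2 -0.25 ± 0.09 SE, adjusted p = 0.0207, edgeR) was not called when day 5 library 1 or day 5 library 2 was left out, within lane L007, or with a lane term. Over these settings its log2 change was -0.24 to -0.16 and its adjusted p 0.0595 to 0.384.

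The marker hairpins, summed where a tissue had several, stood as follows. Their levels are those of these hairpins and not of the tissues. The 3 neuronal hairpins held 158 to 186 CPM at day 5 and 41.9 to 51.8 CPM at day 15. Most of the day 5 sum was lsy-6, with means of 119 CPM at day 5 and 17.9 CPM at day 15. For mir-124 the means were 31.7 and 18.3 CPM, and for mir-791 they were 23.4 and 9.81 CPM. The 8 germ line and embryo hairpins held 97159 to 105703 CPM at day 5 and 165461 to 171413 CPM at day 15. The single markers of muscle and intestine fell from 395 to 507 CPM and from 1813 to 2216 CPM at day 5 to 211 to 219 CPM and to 1021 to 1076 CPM at day 15. No marker was at 0 in any library. These levels moved with age beside the other groups of hairpins, and their part in the other changes was not tested.

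Of the 5 most abundant hairpins at day 5, mir-57 and mir-58a fell, mir-72 rose, and mir-82 and mir-80 did not pass the test. mir-82, of the miR-58 family, held a mean of 18.9% of the reads at day 5 and 16.9% at day 15. It had 187119, 173829 and 196469 CPM at day 5 and 163329.7, 161292 and 191750.2 CPM at day 15. The ages overlapped, and the log2 change of -0.11 ± 0.08 SE did not pass the test (adjusted p = 0.252, edgeR's quasi-likelihood test). mir-57, which shares its seed with miR-10 and acts with a Hox gene in the tail of the embryo, had 83941, 81370.0 and 81235 CPM at day 5 and 35971, 30375 and 40133 CPM at day 15. It fell 2.32-fold with no overlap (log2 -1.21 ± 0.09 SE, adjusted p = 5.53e-08, edgeR), from 8.37% to 3.48% of the reads. mir-39 took its place among the 5 most abundant at day 15. mir-72 rose 1.36-fold, from 77799, 78505 and 75491 CPM at day 5 to 106853, 98417 and 110217 CPM at day 15, also without overlap.

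The miR-58 family, related to insect bantam and known for its control of body size and TGF-beta signalling, had 9 members on the list, of which 8 were tested. Of the 8, 4 were called higher and 1 lower, beside 38.6% higher and 36.4% lower among all tested hairpins. The 4 rises were all in the less abundant members, mir-2209a, mir-2209b, mir-2209c and mir-58b. Of these, mir-2209c lost its call within lane L007 (log2 0.97). mir-58b had the largest log2 change, 2.72 ± 0.36 SE, at only 0.367 ± 0.0592 CPM at day 5 and 2.47 ± 0.365 CPM at day 15 (SD, n = 3). These levels rest on 4, 4 and 3 reads at day 5 and 17, 10 and 9 at day 15. mir-58b, mir-2209b and mir-2209c reached the level of the filter in every library of an age only at day 15. Being tested at all thus favoured a rise in them, and their calls are no separate support. The 4 abundant members had log2 changes from -0.20 to 0.17. mir-58a fell by 0.20 on the log2 scale with overlapping ages, and its call was lost within lane L007 and when day 5 library 1, day 5 library 3, day 15 library 1 or day 15 library 2 was left out (log2 -0.32 to -0.14, adjusted p 0.0509 to 0.151, edgeR's quasi-likelihood test). mir-80, mir-81 and mir-82 were not called; each was called under some other setting, mir-81 as lower in 10 of 18. The family held 33.9% ± 1.7 of the reads at day 5 and 30.7% ± 1.3 at day 15 (SD, n = 3).

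The miR-51 family, related to vertebrate miR-100 and needed to attach the pharynx in the embryo, had 4 of 6 members called higher and 2 not called, beside 38.6% called higher and 75% called in all over the tested hairpins. mir-53 rose most, by 0.51 on the log2 scale, with means of 385 ± 19.7 and 549 ± 17.3 CPM (SD, n = 3). mir-54 and mir-55 rose by 0.36 each, the call of mir-54 being lost within lane L007 (log2 0.22, adjusted p = 0.0566, edgeR). mir-56 rose by 0.23, and its call was lost without day 5 library 2 and in 4 other settings (log2 0.11 to 0.19, adjusted p 0.0503 to 0.406, edgeR's quasi-likelihood test). mir-51 (log2 0.15 ± 0.07 SE) and mir-52 (log2 0.02 ± 0.06 SE) did not pass. mir-51 was called without day 15 library 3 and within lane L006, with log2 changes of 0.18 and 0.23, and 2 to 6 members were called higher over all settings.

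Several smaller families split. In the miR-63 family mir-63 fell by 0.61 and mir-229 by 0.36 on the log2 scale, while mir-66 rose by 0.40 from 3307 ± 102 to 4350.1 ± 264 CPM (SD, n = 3). Its member mir-64 was called higher by 0.14 (adjusted p = 0.035, edgeR's quasi-likelihood test), but lost the call in 13 of 18 settings, among them each of the 6 that left out a library (log2 0.04 to 0.14 over the 13). In the miR-72 family mir-72 rose and mir-74 fell by 0.55, and mir-73 (log2 0.03 ± 0.09 SE) did not pass. In the miR-75 family mir-75 had 117, 111 and 115 CPM at day 5 and 200.1, 239 and 239 CPM at day 15, a 1.97-fold rise, and mir-79, known to act on nerve cell migration, fell by 0.46. The libraries of the ages did not overlap for either of that pair.

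The miR-50, miR-2 and miR-44 families followed. All 3 members of the miR-50 family were called lower, mir-50 by 0.84, mir-62 by 0.55 and mir-90 by 0.28 on the log2 scale, beside 36.4% called lower over all tested hairpins. The call of mir-90 was lost within lane L007 (log2 -0.25, adjusted p = 0.0533, edgeR). Of the miR-2 family, named for the Drosophila microRNA whose targets there include cell death genes, 3 of 4 were called higher, beside 38.6% overall: mir-250, mir-43 and mir-797 rose by 1.22, 0.71 and 0.92. The fourth member, mir-2, was called lower by 0.17, a call lost within lane L006 and without day 5 library 1 or day 5 library 3 (log2 -0.17 to -0.07, adjusted p 0.0675 to 0.313, edgeR's quasi-likelihood test). In the miR-44 family 2 of 4 were called higher and 0 lower. Its member mir-61, which helps set cell fate in the vulva, rose by 0.61 from 9656 ± 117 to 14699 ± 318 CPM (SD, n = 3), and the scarce mir-247 rose by 1.6. mir-44 and mir-45 did not pass. Their counts differed by at most 0.492% in any library, so reads of these near-identical hairpins may have been shared between them and their separate levels are uncertain.

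**Figure D3:**
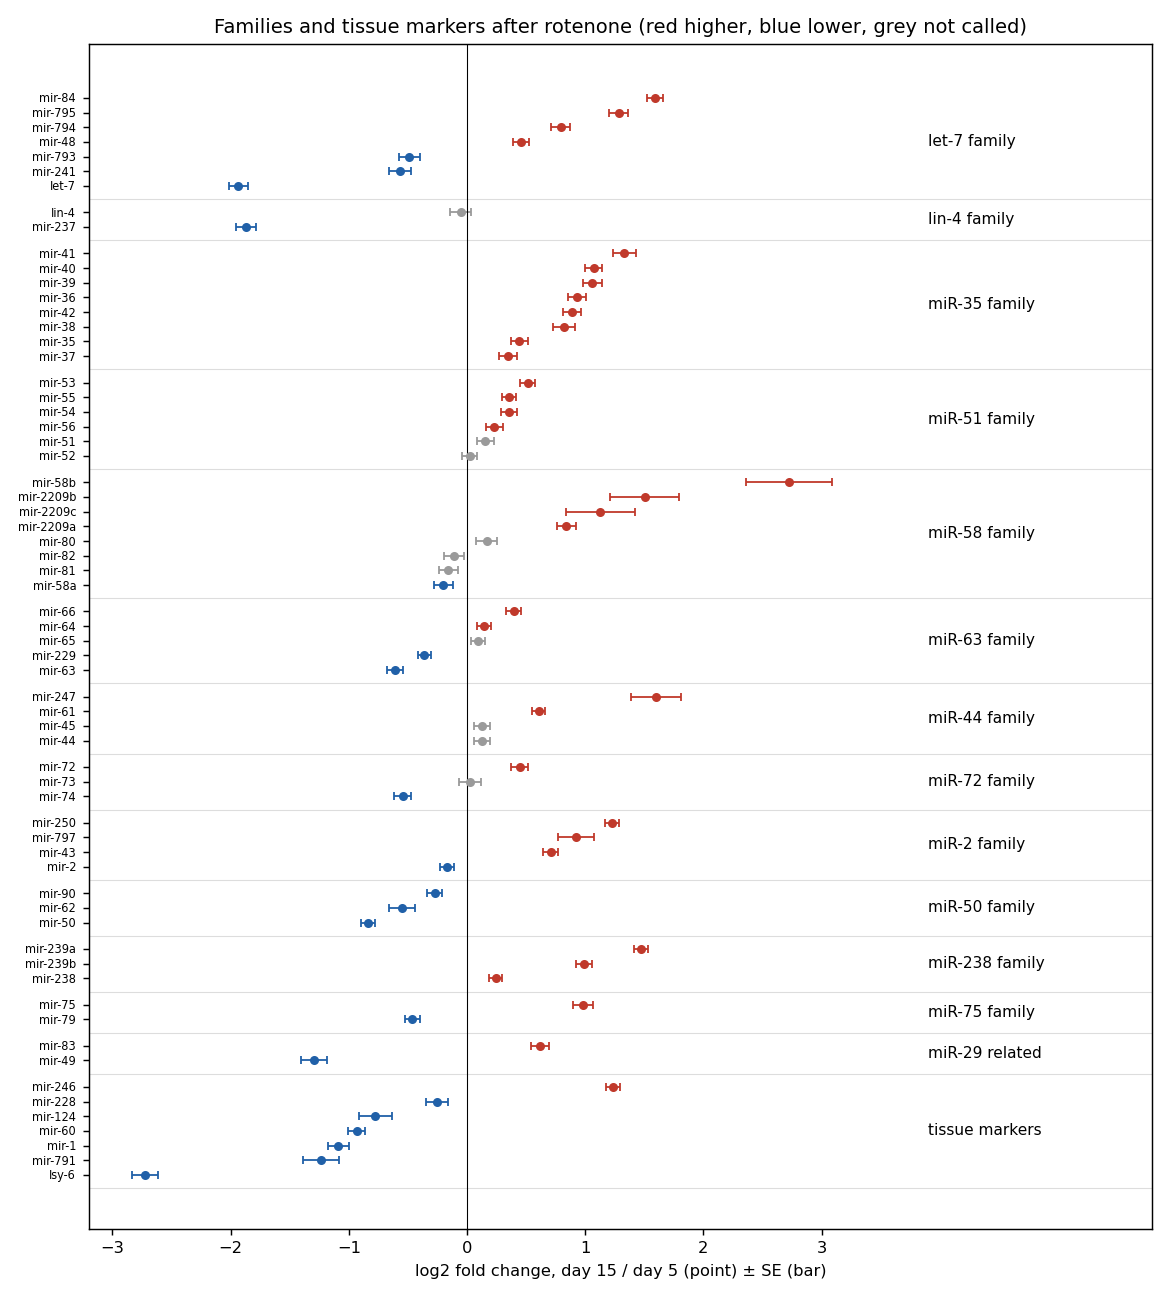
The horizontal axis is the log2 fold change of day 15 over day 5 for each tested member of 13 families or related pairs and the tissue markers, with bars of 1 SE; red is called higher, blue called lower and grey not called. All points of the miR-35, miR-51, miR-44 and miR-238 families lie on the higher side and all points of the miR-50 and lin-4 families on the lower side. Not all of these points were called, and the let-7 family spans from -1.93 to 1.59.

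Above an average of 10 CPM the largest rise was that of mir-4807, which had 3.68, 4.40 and 4.99 CPM at day 5 and 31.1, 30.6 and 30.4 CPM at day 15. These levels came from 41 to 48 reads at day 5 and 120 to 183 at day 15, and the change was 7.07-fold (log2 2.82 ± 0.15 SE, adjusted p = 1.18e-09, edgeR's quasi-likelihood test). mir-240 and mir-786, cut from 1 cluster and linked to fertility and, for mir-786, to the rhythm of defecation, followed after mir-34. mir-240 had 3285, 3296 and 3249 CPM at day 5 and 10156, 9539 and 10671 CPM at day 15, and mir-786 74.3, 69.8 and 74.5 CPM and 260.2, 259.6 and 221 CPM. Neither overlapped between ages, and they rose 3.09-fold and 3.39-fold. Their ratio hardly moved, with 0.0222 ± 0.0009 reads of mir-786 per read of mir-240 at day 5 and 0.0245 ± 0.0034 at day 15 (SD, n = 3). mir-85 rose 2.14-fold from 3701 ± 361 to 7917 ± 697 CPM.

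Among called falls of over 1 on the log2 scale, mir-70 had the highest mean level after mir-57. It had 27788, 27836 and 29336 CPM at day 5 and 8828, 9887 and 10090.0 CPM at day 15, a 2.95-fold fall without overlap (log2 -1.56 ± 0.07 SE, adjusted p = 3.27e-10, edgeR's quasi-likelihood test). It lies on chromosome V at 6665536 to 6665635, minus strand, in an intron of pmp-5, on that gene's strand. mir-788 fell 4.76-fold, from 29.7 ± 0.967 to 5.88 ± 2.89 CPM (SD, n = 3), and mir-244 fell 2.64-fold, from 3615 ± 58.0 to 1371 ± 96.1 CPM. The other largest falls, of mir-789-1, mir-8199, mir-790, mir-230, mir-49, mir-789-2, mir-253, mir-4813 and mir-67, were between 1.24 and 1.46 on the log2 scale. mir-253 among them went from 621 ± 24.6 to 261 ± 12.3 CPM, and mir-67 from 132 ± 9.85 to 56.0 ± 2.22 CPM. All 15 falls and 15 rises ranked in this way kept their sign in every setting tried, and their call in every setting that used both lanes. They were picked as the largest called changes in these same libraries, so the settings are no separate test of them.

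Mirtrons are hairpins released by splicing rather than by the enzyme Drosha. Of 4 hairpins listed as mirtrons 3 were tested, and they did not move together. The annotation placed mir-62, mir-1020 and mir-1019 in introns on the strand of their gene. It placed mir-1018, the only tested one to rise, in no protein-coding gene. mir-1018 rose by 0.51 on the log2 scale, with means of 148 ± 3.34 and 209.7 ± 16.2 CPM (SD, n = 3). mir-62 fell by 0.55 and mir-1020 by 1.72, the latter from only 9.50 ± 0.705 to 2.91 ± 0.375 CPM. mir-1019 was not tested.

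Hairpins within 10 kb of each other on 1 strand formed 22 clusters with at least 2 tested hairpins, 62 hairpins in all. In 12 clusters all tested hairpins were called in 1 direction, and in 4 clusters calls went both ways. With 75% of all tested hairpins called, 38.6% higher and 36.4% lower, these counts are a description and were not tested against that background. The mir-35 cluster of 7 hairpins on chromosome II, from 11537608 to 11538404, moved only upward, as did mir-54, mir-55 and mir-56 on chromosome X, with log2 changes within 0.13 of each other. The clusters of mir-2 with mir-71, mir-228 with mir-790 and mir-230 with mir-791 moved only downward. mir-48 rose while mir-241, 1872 bases across the pair on chromosome V, fell. mir-75 rose while mir-74 fell, 2 hairpins of a stretch of 3785 bases on chromosome X. mir-229, mir-64, mir-65 and mir-66 lie within 755 bases in an intron of gcn-1 on chromosome III, with mir-229 called lower and mir-64 and mir-66 higher. The fourth split cluster held mir-80, not called, with mir-238 higher and mir-90 lower.

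**Figure D4:**
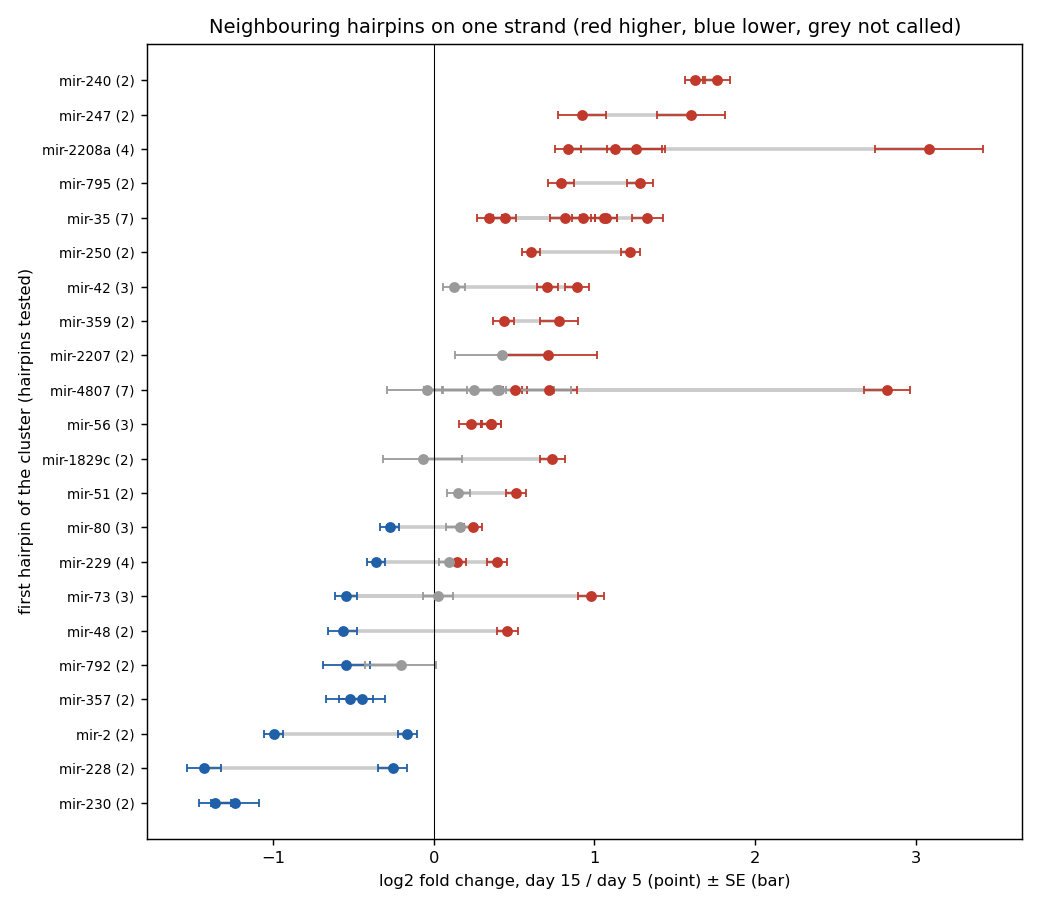
Each line is 1 of the 22 clusters, named for its first hairpin with the number of tested hairpins in brackets, and each point is the log2 fold change of a hairpin with a bar of 1 SE; red is called higher, blue called lower and grey not called. The mir-240 and mir-35 clusters lie wholly on the higher side and the mir-230 cluster wholly on the lower side, while 4 clusters have both colours.

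By annotated position, the counts of calls can be set beside 38.6% higher, 36.4% lower and a median log2 change of 0.03 over all tested hairpins. Of 20 tested hairpins on chromosome I, 3 were called higher and 11 lower, and of 16 on chromosome V, 4 higher and 9 lower. On chromosome II 17 of 32 were higher and 8 lower, and on chromosome III 5 of 19 were higher and 10 lower. On chromosome IV 13 of 29 were higher and 9 lower, and on chromosome X 26 of 59 were higher and 17 lower, both near the overall shares. Of the 48 hairpins inside a protein-coding gene on its own strand, 11 were called higher and 24 lower, with a median log2 change of -0.18. Of the other 127, 57 were higher and 40 lower, with a median of 0.20. Clustered hairpins can come from 1 transcript, so these counts are not of independent items and carry no test.

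Most of what changed between the ages after rotenone also changed in DMSO, in libraries that the comparison above did not use. Among 172 hairpins tested at both, 131 were called after rotenone and 140 in DMSO, with 120 called in the same direction in both and 0 in opposite directions. The 120 were 91.6% of the calls after rotenone and 85.7% of those in DMSO. mir-34 changed by 1.86 ± 0.06 SE on the log2 scale after rotenone and by 1.64 ± 0.05 SE in DMSO, let-7 by -1.93 ± 0.08 and -2.27 ± 0.10, lsy-6 by -2.72 ± 0.11 and -2.53 ± 0.14, and mir-39 by 1.06 ± 0.08 and 1.20 ± 0.06. A call in one treatment and not in the other, found for 11 and 20 hairpins, does not show that they differ.

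The difference itself was tested over all 12 libraries with 181 hairpins, and 12 hairpins, or 6.63%, were called by edgeR's quasi-likelihood test, with 45 at an unadjusted p under 0.05. mir-71 differed most. Its log2 change was -0.996 ± 0.059 SE after rotenone and -1.71 ± 0.05 SE in DMSO, a difference of 0.68 ± 0.09 SE (adjusted p = 5.02e-06, edgeR). The let-7 sister mir-241 followed, falling by 0.57 after rotenone and by 1.26 in DMSO, a difference of 0.65 ± 0.13 SE. mir-77 rose by 0.55 after rotenone and had 0.06 ± 0.05 SE in DMSO, a difference of 0.45 ± 0.09 SE. mir-77 had 5707, 5457 and 5802 CPM at day 5 and 7962, 8707 and 8217 CPM at day 15 after rotenone, with no overlap. The change was also more upward, or less downward, after rotenone in mir-75, mir-249, mir-248, mir-239a, mir-63 and mir-48, by 0.35 to 0.43. It was less upward after rotenone in mir-250, mir-1829b and mir-1018, with differences of -0.45 to -0.33. Of these 12 hairpins only mir-248 was not called between the ages after rotenone.

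These calls were less firm than those between the ages. The median difference of all hairpins was 0.06 with TMM scaling and -0.07 without the 3 most abundant hairpins, and the split of 9 higher and 3 lower became 4 and 7 with library size alone and 3 and 10 without those hairpins. Relative to the median, the difference was 0.60 to 0.61 for mir-71, 0.58 to 0.59 for mir-241 and 0.38 to 0.39 for mir-77 under every scaling. That narrow range was all but fixed, since a new scaling shifts the differences of all hairpins by nearly the same amount. Within lane L006 38 hairpins were called and within lane L007 0 by edgeR, where 19 of 178 had an unadjusted p under 0.05. All 12 hairpins kept the sign of their difference in all 23 settings tried, but they were picked as called in these same libraries. Their constant sign is thus no separate test. In lane L007 the differences of mir-71, mir-241 and mir-77 were 0.64, 0.61 and 0.42.

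**Figure D5:**
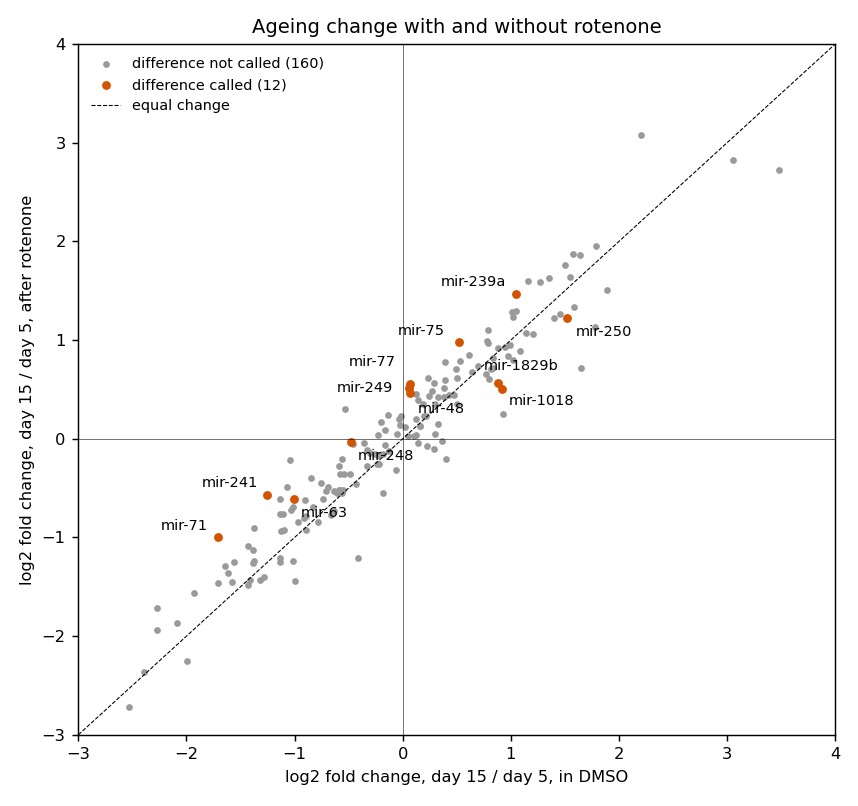
Each point is 1 of the 172 hairpins tested in both treatments, with the log2 fold change of day 15 over day 5 in DMSO on the horizontal axis and after rotenone on the vertical axis; the dashed line marks equal change and orange points are the 12 hairpins whose difference was called. Points follow the line, and mir-71 and mir-241 lie above it on the falling side.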

How the data were processed

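Small RNA of whole worms was sequenced after library preparation with a TruSeq small RNA kit, per the labels' protocols. The authors deposited raw read counts for each hairpin in each library, as whole numbers that were not normalized. Per the submitters' processing notes, the tools included SAMtools 1.3.1-9, BWA 0.7.12-r1039, Trimmomatic 0.36 and bcl2fastq 1.8.4, with no role or order stated. Not given in the sources used here are the genome build, the hairpin reference and the counting rule. The table has 1 count per hairpin and does not separate the arms, and reads of near-identical hairpins (mir-44 and mir-45, mir-5592-1 and mir-5592-2) may be split between them.

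Groups came from the labels. Hairpins passing edgeR's filterByExpr (minimum count 10) were fitted with edgeR 4.0.16 (R 4.3.3), TMM scaling and the quasi-likelihood F test over the 6 rotenone libraries (4 residual degrees of freedom, common biological variation 6.71%), with Benjamini-Hochberg adjustment over all 176 hairpins and a threshold of 0.05. The standard error is the log2 change divided by the square root of F. DMSO libraries had their own fit of 6, and the difference was a contrast over 12 libraries (8 residual degrees of freedom). Shares of reads were compared by the two-sided exact permutation test over libraries. Principal components used log2 of CPM plus 2. A chi-square test of counts gave 23.9 to 206 per degree of freedom between libraries of an age, far over sampling noise, so each library was counted apart. The steps were tested on simulated data. Intervals of counts cover counting error only.

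Alternatives were RLE size factors, library size alone, leaving out the 3 most abundant hairpins, no filter, a mean of at least 10 CPM, DESeq2 1.42.0, limma-voom (limma 3.58.1), a lane term, each lane alone, near-identical hairpins left out, all 12 libraries, and leaving out each library. Where a lane alone leaves 1 library in a group, it is assumed to vary like the other groups.

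Named hairpins are the 15 largest called rises and 15 largest called falls with a mean of at least 10 CPM, tested members of 17 lists, the 5 most abundant at each age, those whose difference from DMSO was called, and tested neighbours within 10 kb of the ranked ones; a part of the rule on shared seeds was not applied. Members and lists were chosen with earlier results of these data known. Positions of 246 of the 250 hairpins come from a WBcel235 annotation, matched by name.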

Additional observations from a re-analysis of the deposited data

Results flagged for a closer look

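For 12 hairpins the change from day 5 to day 15 after rotenone differed from that in DMSO by the test of the difference itself, edgeR's quasi-likelihood test over 12 libraries. The change was more upward, or less downward, after rotenone by 0.68 on the log2 scale in mir-71, 0.65 in mir-241, 0.45 in mir-77, 0.43 in mir-75, 0.42 in mir-249, 0.41 in mir-248, 0.38 in mir-239a, 0.36 in mir-63 and 0.35 in mir-48. It was less upward after rotenone in the other 3, with differences of -0.33 in mir-250, -0.36 in mir-1829b and -0.45 in mir-1018. Adjusted p-values ranged from 5.02e-06 for mir-71 to 0.0328 for mir-1829b. Under the 3 other scalings mir-71, mir-241, mir-77, mir-250, mir-1829b and mir-1018 were called in 3 of 3, mir-239a in 2, mir-75, mir-249, mir-248 and mir-63 in 1 and mir-48 in 0. None was called within lane L007 alone. Leaving out 1 of the 12 libraries in turn ended no call of mir-71, mir-241, mir-77 or mir-239a. It ended 1 or more calls for the others: without rotenone day 5 library 2 (mir-1018, mir-250, mir-1829b and mir-75), rotenone day 5 library 1 (mir-1829b), rotenone day 5 library 3 or DMSO day 5 library 2 (mir-48), rotenone day 15 library 1 (mir-48), rotenone day 15 library 2 (mir-75), rotenone day 15 library 3 (mir-248, mir-249, mir-63, mir-48 and mir-75), DMSO day 15 library 1 (mir-248, mir-249 and mir-75), DMSO day 15 library 2 (mir-48) and DMSO day 15 library 3 (mir-248, mir-63, mir-48 and mir-75). Over all 23 settings the adjusted p of mir-71 was 1.54e-15 to 0.163, and the highest of any of the 12 was 0.423, in edgeR except where DESeq2 or limma was the setting.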

How the results depend on the processing

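The 18 settings tried gave 107 to 136 calls between the ages, all within 1.5 times the 132 reported. The number of hairpins tested also varied, with 107 called of 130 under the stricter filter and 135 of 235 without a filter, beside 132 of 176 as reported. Of 78 named hairpins that were called, 67 kept call and sign in every setting and 0 changed sign; the 11 that lost a call somewhere were mir-2, mir-37, mir-54, mir-56, mir-58a, mir-64, mir-90, mir-228, mir-238, mir-2209c and mir-2220 (adjusted p 0.0905 for the last, within lane L007). Of 15 not called, 8 changed sign somewhere and 5 gained a call. The median log2 change of all hairpins ranged from -0.10 without a filter to 0.12 within lane L006.

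Calls of the difference from DMSO, 12 as reported (9 positive, 3 negative), moved more. With library size alone 4 were positive and 7 negative. Without the 3 most abundant hairpins these were 3 and 10, and without a filter 3 and 5. There were 22 (3 positive, 19 negative) with the stricter filter, 7 negative with DESeq2, 29 (24 and 5) with a lane term, 38 (33 and 5) within lane L006, 0 in either direction within lane L007 and 5 negative without near-identical hairpins. Leaving out 1 library gave 8 to 19 calls, 4 to 14 positive and 0 to 5 negative. The count was 19 without DMSO day 5 library 3 (14 positive, 5 negative), the negative calls went to 0 without rotenone day 5 library 2, and the positive calls to 5 without DMSO day 15 library 3 and to 4 without rotenone day 15 library 3. The cause was not tested.

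Sign changes were limited to hairpins that were not called as reported. mir-52 had log2 changes of -0.0093 with RLE size factors and DESeq2, -0.027 with library size alone, -0.075 without the 3 most abundant, -0.049 without a filter, -0.14 within lane L007 and -0.0020 over all 12 libraries, and -0.017 to 0.061 leaving out 1 library. mir-73 had -0.0075 with RLE and DESeq2, -0.032 with library size alone, -0.072 without the 3 most abundant, -0.045 without a filter and -0.054 within lane L007, and -0.13 to 0.13 leaving out 1 library. mir-4810a had 0.062 with a lane term and 0.14 within lane L006, and -0.26 to 0.13 leaving out 1 library. mir-248 had 0.017 within lane L006, and -0.15 to 0.058 leaving out 1 library. Within lane L007 mir-80 had -0.0011, mir-4808 -0.30 and mir-4809 -0.011, and mir-65 had -0.0084 without the 3 most abundant.

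As a share of TMM-scaled CPM the miR-35 family gained 6.76 percentage points, not 6.27, the miR-75 family 0.00060 and the heterochronic hairpins 0.055, both falls in raw reads; the latter ranged from -0.11 to 0.016 leaving out 1 library. No paired analysis was possible because the labels carry no replicate numbers. Depth at day 15 was lower, and levels near 0.712 CPM rest on about 3 reads.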
